A study of Mus musculus with 18 samples.

Results

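Transcripts of 10 genes that report on Ras-MAPK signaling were followed across mammary tumors and mammary glands of mice. The genes were Hras, Dusp4, Dusp6, Spry1, Spry2, Spred1, Spred2, Etv4, Etv5 and Phlda1, and they were listed by name, with earlier results of these data known. All 10 were found among the 27551 genes that could be named on the array, each through a transcript cluster of its own. The annotation printed 9 of them as the sole symbol of their cluster, and the cluster of Hras carried its older symbol Hras1 beside the current one.

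The arrays came from female C57Bl/6 mice in 3 groups of 6. Mice of the tumor group and of the hyperplastic group received, at 6 to 9 weeks of age, a pellet holding 50 mg of medroxyprogesterone acetate (MPA, a progestin) with a release time of 90 days, and then 6 oral doses of 200 µL of the carcinogen dimethylbenz[a]anthracene (DMBA) at 5 mg/mL, a schedule called M/D here. Tumors (M/D-driven tumors) were collected at 0.7 to 1 cm2, hyperplastic glands came from M/D-exposed mice without a tumor, and normal glands came from M/D-naïve mice, whose age the labels do not give. The labels do not name the mouse behind each array, so the p-values below measure the spread between these samples, which may be in part technical.

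Ras is a small GTPase that, once loaded with GTP, starts a kinase chain of RAF, MEK and ERK. Active ERK switches on genes that then restrain the same chain: dual-specificity phosphatases strip the activating phosphates from ERK, and Sprouty and Spred proteins act higher up, at Ras and RAF. ERK signaling also raises the PEA3 family of ETS transcription factors, to which Etv4 and Etv5 belong and which is known from the branching mammary epithelium of mice. In mice, DMBA is known to cause activating Hras mutations, but the arrays measured the amount of each transcript and neither its sequence nor the activity of the protein.

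The values are log2 expression levels after robust multi-array averaging (RMA), so that a difference of 1 is a doubling. Levels of different genes depend on their probes and are not set against each other. A detection level of 5.35 was placed at the 95th percentile of the means of 1081 olfactory receptor genes, and all 10 genes lay above it on all 18 arrays. Changes are differences of group means with their standard error (SE) from limma, fitted to all 18 arrays, and a gene was called where its Benjamini-Hochberg adjusted p over the 27551 genes was under 0.05.

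The tissues differed in their cell makeup. Levels summed on the linear scale over 6 fat cell markers ran from 761 to 3138 in tumors, from 9817 to 16575 in hyperplastic glands and from 10755 to 12781 in normal glands, and 6 of 6 were lower in tumors than in normal glands. All 6 T cell markers, all 5 measured B cell markers and all 5 endothelial markers were lower as well, while all 5 cell division genes were higher (sums of 1780 to 4264 in tumors, 1015 to 1503 in hyperplastic glands and 408 to 757 in normal glands). Of 7 epithelial markers 1 was higher and 6 did not pass the test, and their sums ran from 2681 to 19043 in tumors, from 5727 to 11088 in hyperplastic glands and from 6027 to 6962 in normal glands. Of 5 fibroblast markers 3 were lower, and of 5 skeletal muscle markers 0 were called. By group mean, 1 B cell marker in tumors and 1 cell division gene in normal glands lay under the detection level given above, and the part of cell makeup in the results below was not tested; in bulk tissue, fewer cells of a type and less RNA per cell cannot be told apart. An earlier analysis of these data had set tumors 3 and 6 and hyperplastic gland 3 apart from their groups, and calls that change without these 3 arrays are given both ways.

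Against M/D-naïve glands, 7 of the 10 genes were higher in tumors and none was lower. The 7 were Hras, Dusp6, Spred1, Spred2, Etv4, Etv5 and Phlda1, and the 3 that did not pass the test were Dusp4, Spry1 and Spry2. Over all genes 31.9% were called in this comparison, 19.3% as higher and 12.7% as lower. Those shares include genes under the detection level, while all 10 lay above it. Of the 17401 genes with a mean above that level, fitted alone, 7774 were called, 4805 of them as higher. The median change of the 10 genes was 0.43 log2 and that of all genes 0.04. Without tumors 3 and 6 and hyperplastic gland 3 the count was also 7.

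Against hyperplastic glands, which had the same exposure, 5 genes were higher in tumors (Hras, Dusp6, Spred2, Etv4 and Etv5), none was lower, and the median change was 0.36 against 0.04 for all genes. Of all genes 20.3% were called, 11.8% as higher and 8.5% as lower. Of the 17401 genes above the detection level, fitted alone, 5339 were called, 3122 of them as higher. Without the 3 arrays set apart the count was 6, with Phlda1 added. The 2 comparisons share the tumor arrays, and each shares its glands with the comparison of hyperplastic and normal glands, so they are not independent of each other. Between hyperplastic and normal glands limma called none of the 10, beside 1.63% of all genes called, 0.991% as higher and 0.642% as lower; 1 of the 10, Phlda1, had an unadjusted p under 0.05.

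**Figure D1:**
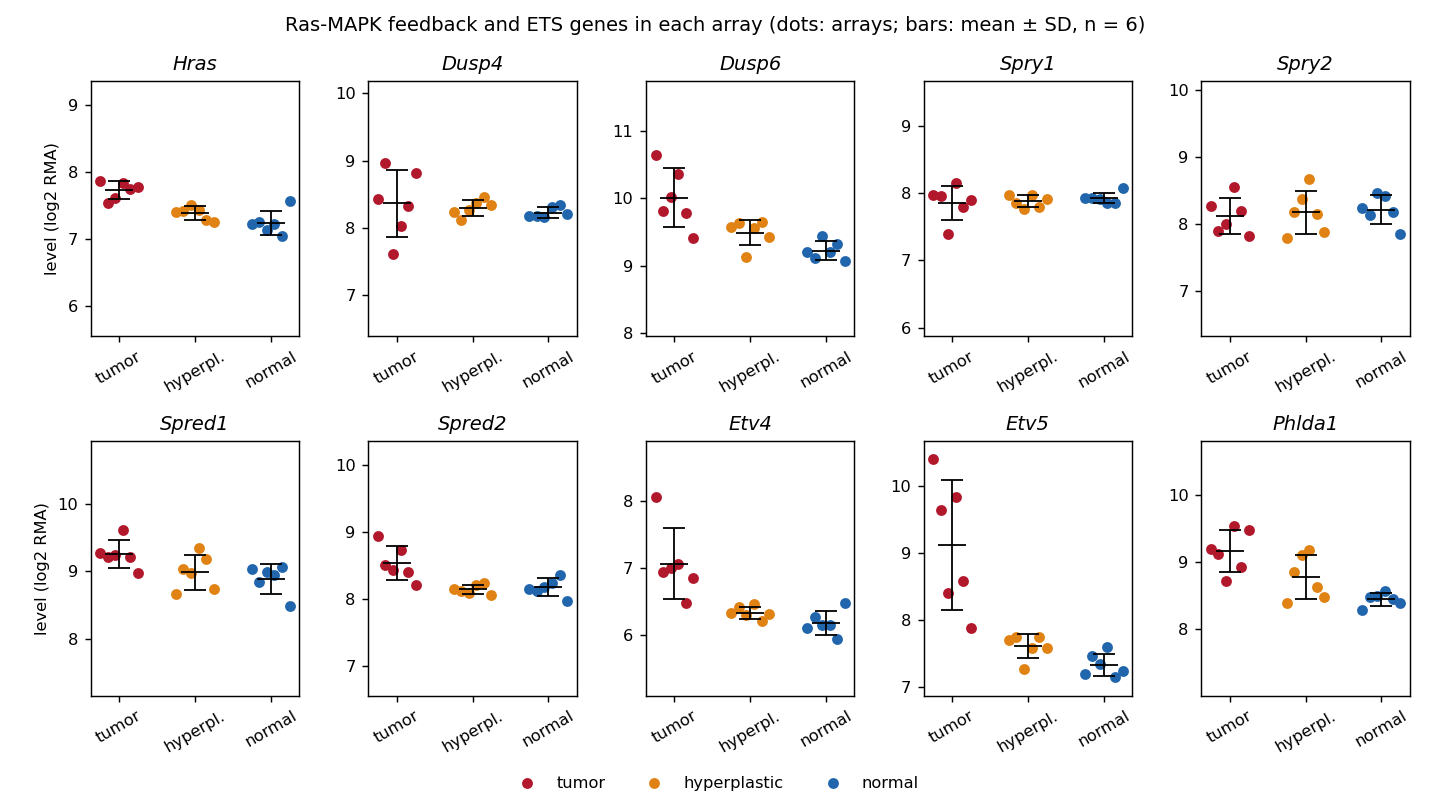
Level (log2 RMA) of each of the 10 genes on each of the 18 arrays, tumors left, hyperplastic glands in the middle and normal glands right, with replicates 1 to 6 in order within a group and the mean ± SD in black; every panel spans the same number of log2 units. Etv5 spreads from 7.88 to 10.40 across the tumors, while the groups of Spry1 and Spry2 lie over each other.

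Etv5 showed the largest change of the 10. Its level was 10.40, 9.64, 8.41, 9.83, 8.58 and 7.88 in tumors 1 to 6. In hyperplastic glands it was 7.71, 7.75, 7.27, 7.59, 7.75 and 7.58, and in normal glands 7.19, 7.47, 7.34, 7.60, 7.15 and 7.24. Every tumor lay above every gland of either kind, but tumors 1, 2 and 4 formed a high set and tumor 6 stood just above the glands. The mean difference was 1.79 ± 0.31 log2 (SE, n = 6 per group) between tumors and normal glands, or 3.46-fold, with an adjusted p of 0.000225. Against hyperplastic glands it was 1.51 ± 0.31 log2, or 2.85-fold (adjusted p = 0.00211). Across the alternatives in processing the change ran from 1.54 to 2.28 against normal glands and from 1.26 to 1.93 against hyperplastic glands. Apart from the threshold of the study's methods, a log2 change over 2, Etv5 was called in each (highest limma adjusted p 0.0025 and 0.0154). The value of 2.28 came without tumors 3 and 6 and hyperplastic gland 3. Hyperplastic glands were 0.28 ± 0.31 log2 above normal glands, which did not pass the test (adjusted p = 0.829, 95% interval -0.38 to 0.94).

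Etv4, the close relative of Etv5, rose as well. Tumors 1 to 6 had levels of 8.06, 6.95, 7.00, 7.07, 6.48 and 6.85. The hyperplastic glands lay between 6.22 and 6.47 with a median of 6.32, and the normal glands between 5.95 and 6.49 with a median of 6.15. Tumor 1 stood well above the other tumors, and tumor 5 lay just under the highest normal gland, replicate 6. The change was 0.88 ± 0.18 log2 against normal glands (adjusted p = 0.000794) and 0.73 ± 0.18 against hyperplastic glands (adjusted p = 0.00647). Leaving out each array in turn kept both calls, and without tumor 1 the changes were 0.68 and 0.53.

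Dusp6, the phosphatase that removes phosphate from ERK in the cytoplasm, was higher in tumors than in either kind of gland. Its tumor levels were 10.64, 9.82, 10.02, 10.36, 9.79 and 9.41. Hyperplastic glands ran from 9.13 through a median of 9.56 to 9.65, and normal glands from 9.06 through 9.20 to 9.44. In 5 of 6 tumors the level was above every gland of both kinds, and tumor 6 lay among the glands. Dusp6 was 0.79 ± 0.16 log2 higher than in normal glands (adjusted p = 0.000765) and 0.51 ± 0.16 higher than in hyperplastic glands (adjusted p = 0.0264). The call against hyperplastic glands was lost without tumor 1 (0.39, adjusted p = 0.0576), tumor 4 (0.44, adjusted p = 0.0665), hyperplastic gland 3 (0.44, adjusted p = 0.0628) or hyperplastic gland 6 (0.50, adjusted p = 0.0538).

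Dusp4, a phosphatase of the same family that acts in the nucleus, passed the test in no comparison. Its tumor levels were 8.42, 8.96, 7.61, 8.03, 8.32 and 8.82, against 8.11 to 8.46 in hyperplastic glands and 8.16 to 8.34 in normal glands. The mean change was 0.14 ± 0.16 log2 against normal glands (adjusted p = 0.577, 95% interval -0.21 to 0.48) and 0.07 against hyperplastic glands (adjusted p = 0.823). Against normal glands it was 0.02 without tumor 2 and 0.29 without tumor 3, with no call in either. Tumors lay on both sides of the glands: tumors 2 and 6 were above all of them, and tumors 3 and 4 were below all of them. The SD was 0.50 in tumors, against 0.12 in hyperplastic glands and 0.08 in normal glands.

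Both Spred genes, inhibitors that act between Ras and RAF, were higher in tumors than in normal glands. Spred2 had levels of 8.95, 8.51, 8.43, 8.73, 8.40 and 8.22 in tumors 1 to 6, against 8.06 to 8.25 in hyperplastic glands and 7.98 to 8.36 in normal glands. In 5 of 6 tumors it was above every gland, and tumor 6 again lay within their range. The change was 0.36 ± 0.10 log2 against normal glands (adjusted p = 0.0067) and 0.39 ± 0.10 against hyperplastic glands (adjusted p = 0.00706).

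Spred1 had levels of 9.28, 9.21, 9.24, 9.62, 9.22 and 8.97 in tumors. They were 8.67 to 9.35, with a median of 9.00, in hyperplastic glands and 8.48 to 9.06, with a median of 8.96, in normal glands. Tumors and hyperplastic glands overlapped over most of their range, and normal gland 6 was the lowest array of all. Spred1 was 0.37 ± 0.13 log2 higher in tumors than in normal glands (adjusted p = 0.0324), and the difference of 0.27 ± 0.13 from hyperplastic glands did not pass (adjusted p = 0.148, 95% interval 0.01 to 0.53). The call against normal glands was lost without tumor 1 (0.36, adjusted p = 0.0539), tumor 4 (0.29, adjusted p = 0.0824), normal gland 2 (0.36, adjusted p = 0.0585) or normal gland 6 (0.28, adjusted p = 0.0728), and when arrays were centred on 7 reference genes (0.26, adjusted p = 0.108).

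The Sprouty genes, which encode inhibitors that hold back growth factor receptors from activating Ras, did not differ beyond the spread between arrays. Spry1 had levels of 7.97, 7.96, 7.40, 8.15, 7.79 and 7.90 in tumors, against 7.77 to 7.98 in hyperplastic glands and 7.86 to 8.08 in normal glands. Tumor 3 lay below every gland and tumor 4 above every gland. Its change against normal glands was -0.07 ± 0.09 log2 (adjusted p = 0.621, 95% interval -0.26 to 0.12). Without tumor 3 that change was 0.02, with no call.

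Spry2 ran from 7.82 through a median of 8.10 to 8.55 in tumors, from 7.79 through 8.17 to 8.68 in hyperplastic glands and from 7.85 through 8.21 to 8.46 in normal glands. The 3 ranges almost coincided. Its change was -0.09 ± 0.15 log2 against normal glands (adjusted p = 0.683, 95% interval -0.41 to 0.22) and -0.06 ± 0.15 against hyperplastic glands (adjusted p = 0.839). The 95% interval of Spred1 against normal glands, 0.10 to 0.63, overlaps that of Spry2, and the difference between these genes was not tested.

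Hras itself, the GTPase at the head of the chain, was higher in tumors than in either kind of gland. Tumors 1 to 6 had levels of 7.87, 7.54, 7.61, 7.84, 7.75 and 7.77. Hyperplastic glands ran from 7.26 to 7.51 with a median of 7.41, and normal glands from 7.04 to 7.57 with a median of 7.22. Every tumor was above every hyperplastic gland, and of the normal glands replicate 6 alone reached the level of the lowest tumor. The change was 0.49 ± 0.08 log2 against normal glands (adjusted p = 0.000116) and 0.34 ± 0.08 against hyperplastic glands (adjusted p = 0.00494). Hyperplastic glands were 0.15 ± 0.08 log2 above normal glands without passing the test (adjusted p = 0.452).

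Phlda1, a pleckstrin homology protein that is induced by growth factors through ERK, rose in tumors against normal glands, and its hyperplastic glands lay between. Its levels were 9.19, 9.12, 8.71, 9.53, 8.92 and 9.47 in tumors. Hyperplastic glands had 8.38, 8.85, 9.10, 9.18, 8.62 and 8.48, and normal glands had 8.28, 8.47, 8.49, 8.56, 8.44 and 8.38. Every tumor lay above every normal gland, and the hyperplastic glands spread from the normal into the tumor range. Tumors were 0.72 ± 0.15 log2 above normal glands (adjusted p = 0.00088). Against hyperplastic glands the difference of 0.39 ± 0.15 missed the threshold (adjusted p = 0.0696, 95% interval 0.08 to 0.70), and it passed without tumor 3 (0.48, adjusted p = 0.0197), hyperplastic gland 3 (0.46, adjusted p = 0.039) or hyperplastic gland 4 (0.47, adjusted p = 0.0274). Hyperplastic glands were 0.33 ± 0.15 log2 above normal glands, with an unadjusted p of 0.0361 and an adjusted p of 0.321.

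Counting arrays that do not overlap gave a narrower picture. Every tumor was above every normal gland for 2 of the 10 genes, Etv5 and Phlda1, and 9.1% of all genes had this pattern. Every tumor was above every hyperplastic gland for 3 of 10, Hras, Etv4 and Etv5, beside 4.92% of all genes. Both shares include genes under the detection level.

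**Figure D2:**
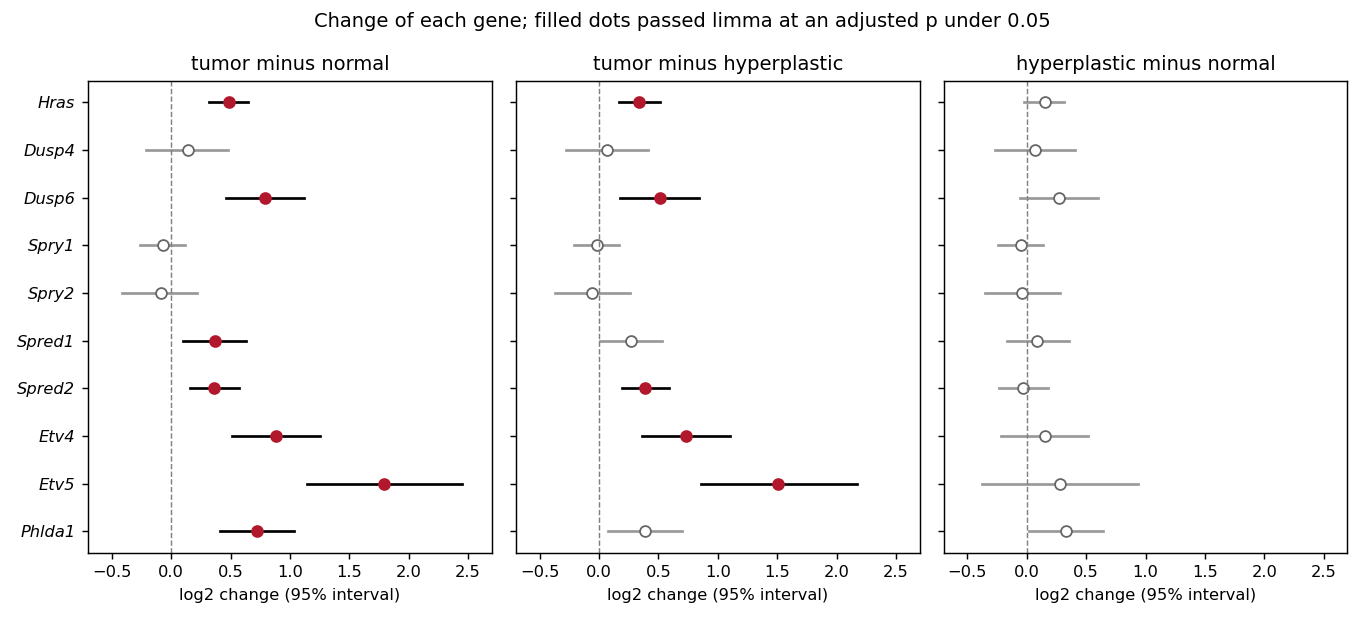
Change of each gene in log2 units with its 95% interval from limma, in tumors minus normal glands, tumors minus hyperplastic glands and hyperplastic minus normal glands; filled dots passed at an adjusted p under 0.05 over 27551 genes. Called genes number 7, 5 and 0 in the 3 panels, and Etv5 has the largest change in both panels with tumors.

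The start regions of the called genes show what they have in sequence. RefSeq start sites on GRCm38.p6 were held for 7 of the 10 genes. The 250 bases before each start were searched on both strands for fixed motifs. They were 1 form of the ETS factor site (CGGAAG), the AP-1 site bound by Fos and Jun (TGANTCA) and the cyclic AMP response element (TGACGTCA). Other forms of the ETS site were not searched. Dusp6, Spred1 and Spred2 held 1 match to CGGAAG each, and Hras, Spry1, Spry2 and Etv5 held no match to this form. Etv5 has 2 start sites in the table; that at the outer end of the gene was used, and the other region held none of the motifs either. No AP-1 or cyclic AMP element was found in the 7 genes, so no match overlapped another. Of 32851 mouse start regions of the same length 13.6% held CGGAAG, 6.75% the AP-1 site and 1.55% the cyclic AMP element. The 3 regions with a match and that of Etv5, the gene with the largest change, are shown 5′ to 3′ up to the base before the start. The match to CGGAAG is in capitals (CTTCCG where it lies on the opposite strand).
Dusp6 (chr10:99262981-99263230, plus strand): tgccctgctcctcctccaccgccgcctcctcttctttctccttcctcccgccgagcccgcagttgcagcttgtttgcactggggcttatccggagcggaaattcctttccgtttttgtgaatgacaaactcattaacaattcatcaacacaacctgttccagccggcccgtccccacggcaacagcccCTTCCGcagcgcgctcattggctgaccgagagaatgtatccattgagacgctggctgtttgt
Spred1 (chr2:117120821-117121070, plus strand): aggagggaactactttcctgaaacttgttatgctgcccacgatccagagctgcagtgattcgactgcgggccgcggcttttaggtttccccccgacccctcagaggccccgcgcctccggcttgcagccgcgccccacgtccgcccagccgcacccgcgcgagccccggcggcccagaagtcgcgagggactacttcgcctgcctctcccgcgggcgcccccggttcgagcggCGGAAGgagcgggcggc
Spred2 (chr11:19924192-19924441, plus strand): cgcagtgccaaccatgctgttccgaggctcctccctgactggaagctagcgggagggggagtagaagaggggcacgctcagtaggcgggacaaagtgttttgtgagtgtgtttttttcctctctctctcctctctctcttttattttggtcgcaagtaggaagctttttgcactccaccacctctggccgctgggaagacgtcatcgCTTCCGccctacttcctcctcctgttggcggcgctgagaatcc
Etv5 (chr16:22439571-22439820, minus strand): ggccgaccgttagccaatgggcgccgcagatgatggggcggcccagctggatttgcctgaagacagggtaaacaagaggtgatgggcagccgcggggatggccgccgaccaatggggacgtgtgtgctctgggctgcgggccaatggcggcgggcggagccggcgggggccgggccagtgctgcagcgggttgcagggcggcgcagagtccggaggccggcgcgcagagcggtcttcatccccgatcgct
Counted from the start, the match lay at positions -62 to -57 in Dusp6, -17 to -12 in Spred1 and -43 to -38 in Spred2. A match of letters describes the sequence and not a bound site. The start regions of Dusp4, Etv4 and Phlda1 were not analysed here.

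The tumors were not alike in these genes. Relative to the mean of the normal glands, the 7 genes with a rise averaged 1.27 log2 in tumor 1, 0.76 in tumor 2, 0.56 in tumor 3, 1.07 in tumor 4, 0.52 in tumor 5 and 0.44 in tumor 6. Tumor 1 had the highest level for 5 of the 7 genes (Hras, Dusp6, Spred2, Etv4 and Etv5) and tumor 4 for the other 2 (Spred1 and Phlda1). Tumor 4 was among the top 2 tumors for 7 of 7, and tumor 6 was the lowest for 4 (Dusp6, Spred1, Spred2 and Etv5) although it was second highest for Phlda1.

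Values of the marker lists by tumor stand beside this order. The mean level of the 5 cell division genes was 9.44 in tumor 1, 8.78 in tumor 2, 8.98 in tumor 3, 9.20 in tumor 4, 8.10 in tumor 5 and 8.63 in tumor 6, so the 2 tumors that led in the pathway genes also led here. The mean of the 7 epithelial markers was 10.10, 10.95, 8.47, 10.94, 10.98 and 10.61 in tumors 1 to 6, with tumor 3 far below the rest, and the fat cell markers averaged 6.78 in tumor 1 and 6.90 in tumor 4, the lowest values of the 6. The part of these lists in the order of the tumors was not tested.

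**Figure D3:**
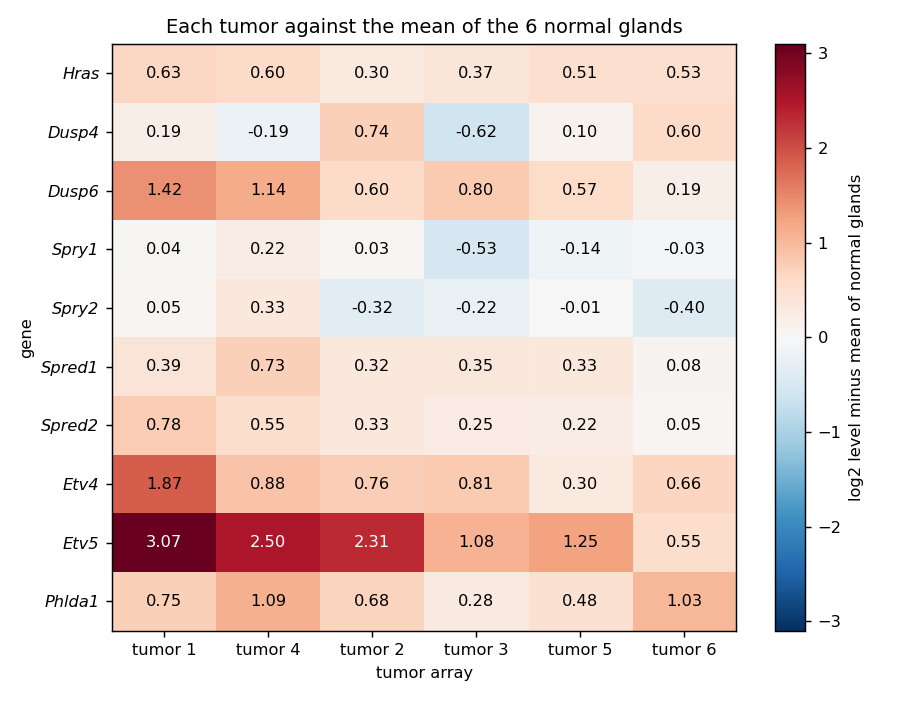
Level of each gene in each tumor minus the mean of the 6 normal glands (log2, colour and printed value), with tumors 1 and 4 placed first. Etv5 runs from 3.07 in tumor 1 to 0.55 in tumor 6, and Dusp4 from 0.74 in tumor 2 to -0.62 in tumor 3.

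The SD among tumors exceeded that among normal glands for 8 of 10 genes, and that among hyperplastic glands for 7 of 10. Of the 17401 genes above the detection level 71.3% and 77.1% did so, which is close to the shares of the 10. The ratio of tumor SD to normal SD was 6.55 for Dusp4, 5.6 for Etv5 and 3.17 for Dusp6, against a median of 1.49 over those 17401 genes; for Hras it was 0.722 and for Spred1 0.958. Within the tumor group the highest level of Etv5 was 5.72 times the lowest, the widest range of the 10, and for Hras this was 1.26 times.

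Within the 6 tumors the 10 genes formed 45 pairs, of which 39 correlated positively. The share of positive pairs among other genes was not computed. The pairs share genes and the arrays share a normalization, so this count is a description only. By exact permutation (two-sided, 720 orders), 6 pairs had an unadjusted p under 0.05 by Pearson's r and 6 by Spearman's rho, and 0 passed after Benjamini-Hochberg adjustment over the 45 (lowest adjusted p = 0.0938). With 720 orders and 45 pairs, no pair could have passed on its own, however strong its correlation. The adjusted result therefore does not decide whether a given pair is correlated. Dusp6 and Spred2 had the highest r, 0.963 (exact permutation p = 0.00417, adjusted p = 0.0938), with a rho of 0.943 (exact permutation p = 0.0167), and r was 0.852 without the 2 tumors farthest from the median of Dusp6. Spred2 and Etv5 gave r = 0.942 (exact permutation p = 0.00278, adjusted p = 0.0938) and rho = 0.943, with r = 0.894 without 2 tumors. The r of Dusp4 with the other 9 genes ran from -0.508 with Spred1 to 0.525 with Spry1.

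Other genes of the pathway were taken from 8 lists of 100 genes, of which 77 were measured; the lists were drawn up with earlier results of these data known. Against normal glands 13 of the 77 were higher in tumors, 24 were lower and 40 did not pass, with a median change of -0.08 log2; over all genes 19.3% were higher and 12.7% lower, with a median of 0.04. Against hyperplastic glands 8 were higher, 19 lower and 50 not called, with a median of -0.06, beside 11.8% higher and 8.5% lower over all genes and a median of 0.04. The all-gene shares here and below include genes under the detection level. With the 17401 genes above it fitted alone, 13 of the 77 were higher and 24 lower against normal glands, among 7774 calls, 4805 of them higher. Against hyperplastic glands 9 were higher and 20 lower, among 5339 calls, 3122 of them higher.

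Immediate early genes are mostly transcription factor genes that ERK and other kinases switch on within minutes. Of 13 measured, 0 were higher, 9 lower and 4 not called in tumors against normal glands, with a median of -0.72, where 12.7% of all genes were lower. Against hyperplastic glands 0 were higher, 6 lower and 7 not called, with a median of -0.48, where 8.5% of all genes were lower. Fosb, a partner of Jun in AP-1, ran from 9.75 through 10.09 to 10.52 in tumors, from 10.96 through 11.24 to 11.80 in hyperplastic glands and from 11.53 through 11.76 to 12.10 in normal glands. Its tumor range did not reach either gland range, and it fell by 1.69 log2 against normal glands (SE 0.14, adjusted p = 1.71e-07). Fos, Jun and Myc were chosen after their values were seen: the changes against normal glands were -1.08 for Fos (adjusted p = 0.00374), -1.01 for Jun (adjusted p = 0.000114) and 0.01 for Myc (adjusted p = 0.979).

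Among the Ras GTPases, exchange factors and adaptors, 2 of 12 were higher and 3 lower in tumors than in normal glands, against 19.3% and 12.7% of all genes. Rasgrf2 and Rasgrp1, exchange factors that load Ras with GTP, had the largest falls of the 77 genes. Rasgrf2 lay between 5.29 and 5.84 in tumors, with a median of 5.55, against 6.76 to 7.51 in hyperplastic glands and 7.35 to 7.90 in normal glands. It fell by 2.17 log2 against normal glands (SE 0.14, adjusted p = 1.68e-08) and by 1.63 against hyperplastic glands (adjusted p = 4.56e-07). Rasgrp1, the exchange factor best known from T cells, fell by 2.06 against normal glands (SE 0.24, adjusted p = 3.67e-06) and by 1.86 against hyperplastic glands (adjusted p = 2.82e-05); the T cell markers, as given above, were lower in tumors too.

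Besides the members above, 8 transcripts were listed as readouts of MEK activity, of which 7 were measured: Emp1, Epha2, Epha4, Lif, Phlda2, Phlda3 and Plaur. Whether each of them follows MEK in these tissues was not tested. In tumors 3 of 7 were higher and 0 lower against normal glands, and 2 were higher and 0 lower against hyperplastic glands. Phlda2, named here after its values were seen, was among the higher genes in both (0.65 and 0.47 log2). Over all genes 19.3% and 11.8% were higher in these comparisons. Epha2, a receptor tyrosine kinase, ran from 8.30 through 8.73 to 9.40 in tumors, from 7.81 through 8.05 to 8.34 in hyperplastic glands and from 7.41 through 7.48 to 7.66 in normal glands. It rose by 1.24 ± 0.14 log2 against normal glands (adjusted p = 3.35e-06) and by 0.69 ± 0.14 against hyperplastic glands (adjusted p = 0.00207). Lif, a cytokine, rose by 0.84 ± 0.20 against normal glands (adjusted p = 0.00329), with no call against hyperplastic glands (0.24, adjusted p = 0.453).

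In the RAF, MEK and ERK list 4 of 8 genes were higher and 2 lower in tumors than in normal glands, where 19.3% and 12.7% of all genes were. Against hyperplastic glands 3 were higher and 1 lower, where 11.8% and 8.5% of all genes were; the lower gene was Ksr1, a scaffold of the kinases named here after its values were seen (-0.27, adjusted p = 0.047), whose call held in 9 of 28 alternatives. Pebp1, which binds RAF and keeps it from MEK, ran from 8.15 to 8.56 in tumors, from 7.79 to 7.94 in hyperplastic glands and from 7.51 to 7.77 in normal glands. It rose by 0.72 ± 0.07 log2 against normal glands (adjusted p = 6.83e-07) and by 0.52 ± 0.07 against hyperplastic glands (adjusted p = 4.5e-05). Map2k1, which encodes MEK1, was the 1 gene of the 77 called between hyperplastic and normal glands (0.29 ± 0.07, adjusted p = 0.045), where 1.63% of all genes were called. With those groups alone 6 of the 77 were higher and 4 lower, and with array weights 8 were higher and 6 lower. The call of Map2k1 was kept in 15 of 28 alternatives, among them these 2 settings (adjusted p = 0.00677 and 0.0057), and lost, for example, when arrays were centred on reference genes (0.18, adjusted p = 0.124), without hyperplastic gland 3 (0.27, adjusted p = 0.111) or without normal gland 1 (0.29, adjusted p = 0.109).

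The remaining relatives of the 10 genes gave mixed counts, beside all-gene shares of 19.3% higher and 12.7% lower against normal glands and 11.8% higher and 8.5% lower against hyperplastic glands. Of 6 other dual-specificity phosphatases 2 were higher and 2 lower in tumors in each of the comparisons with normal and hyperplastic glands. Dusp9 was among the 3 largest rises against hyperplastic glands, at 6.63 to 8.11 in tumors against 6.40 to 6.74 in hyperplastic glands (0.59 ± 0.18, adjusted p = 0.0234); the call was lost without tumor 1 (0.56, adjusted p = 0.051) or hyperplastic gland 5 (0.56, adjusted p = 0.0505) and with the 2 compared groups alone (adjusted p = 0.0705), and without tumor 3 the change was 0.40, still called. Of 18 other ETS factors 2 were higher and 6 lower than in normal glands, and 1 was higher and 6 lower than in hyperplastic glands. Spib, an ETS factor of B cells, lay at 5.94 to 6.47 in tumors against 7.07 to 8.01 in hyperplastic glands and fell by 1.35 log2 (SE 0.16, adjusted p = 2.09e-05), beside the lower B cell markers. Of 6 other Sprouty, Spred and receptor-level inhibitors 0 were called in either comparison by limma, with 1 and 0 at an unadjusted p under 0.05 against normal and hyperplastic glands. Of 7 Ras GTPase-activating proteins 0 were higher and 2 lower in each comparison.

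**Figure D4:**
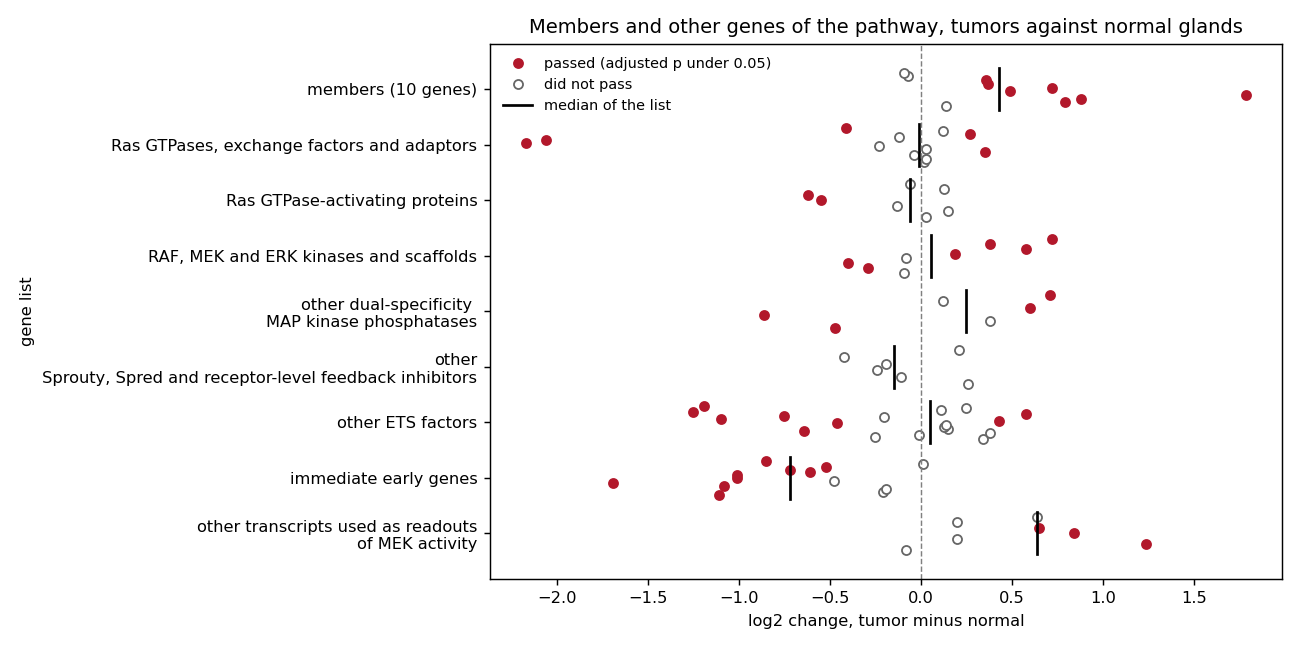
Change of each gene in tumors minus normal glands (log2, horizontal axis), by list, with the 10 genes in the top row; red dots passed at an adjusted p under 0.05, open dots did not, and the bar is the median of the list. The top row has its median at 0.43 and the immediate early genes at -0.72.

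Genes whose levels moved most like those of a member were sought among 17400 others above the detection level, over the deviations of all 18 arrays from their group means; these correlations are a description, since the arrays share a normalization and the best of many was taken. Etv4 was matched most closely by Mycn (r = 0.985, rho = 0.955; 0.991 within tumors and 0.954 within glands). Etv5 was matched by Adamts18 (r = 0.955, with 0.982 within tumors and 0.733 within glands), Dusp6 by Tmem39a (0.914) and Spred2 by Naa16 (0.912). For Spry2 the closest gene was another of the 10, Spred1 (r = 0.854, rho = 0.779; 0.896 within tumors and 0.837 within glands). The remaining closest genes were Ppfibp2 for Dusp4 (0.911), Spin4 for Spry1 (0.896), Arcn1 for Spred1 (0.903), Gm8805 for Hras (0.912) and n-R5s109 for Phlda1 (0.865).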

How the data were processed

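Total RNA of 18 mammary tissues was hybridised to Affymetrix mouse whole-transcript arrays. The deposited values are log2 expression levels that the authors made with RMA, which subtracts background, quantile-normalizes arrays and summarises probes; the notes name Expression Console, RMA and Partek. RMA compresses differences near background and hides differences in total RNA. Array medians ran from 5.31 to 5.51, and 6 arrays per group limit the precision. Clusters were named through the platform annotation; 580 with several symbols of the same gene were kept and 1377 with several genes left out. The highest mean was used for 251 genes with several clusters. Autosomes after 16 were, apart from stray entries, not analysed here. Group means were fitted with limma 3.58.1 in R 4.3.3, two-sided, with Benjamini-Hochberg adjustment, and the pipeline was tested on simulated data.

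The 10 members and the lists were chosen with earlier results of these data known. By rule, all members were described, and from the pathway lists the 3 largest called rises and falls per comparison. Alternatives covered the groups fitted, replicate block, filter, centring, array weights, variance prior, clusters, call rule and left-out arrays; the reading of the Hras symbol was added after seeing the data.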

Additional observations from a re-analysis of the deposited data

Results flagged for a closer look

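In groups of 6 arrays, 3 of the 30 gene and group sets had an extreme array whose gap to its nearest neighbour, as a share of the group's range, was above Dixon's 95% critical value; chance alone gives about 1 in 20. Etv4 was highest in tumor 1 at 8.06 (share 0.63), and without tumor 1 Etv4 was 0.68 above normal and 0.53 above hyperplastic glands, both still called. Etv5 was lowest in hyperplastic gland 3 at 7.27 (share 0.633). Spry1 was highest in normal gland 6 at 8.08 (share 0.673).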

How the results depend on the processing

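Across 29 alternatives, 6 or 7 genes were called against normal glands and 4 to 6 against hyperplastic glands, apart from the threshold of the study's methods (a log2 change over 2), under which 0 were called in either because no gene changed that far; leaving out each array gave 6 to 7 and 4 to 6. Between hyperplastic and normal glands 0 were called in every left-out-array fit and 1 with array weights (Hras, 0.21, adjusted p = 0.0292). The labels do not say whether replicate numbers pair the samples. Same-number correlations did not settle it (r from -0.214 to 0.418, the best match in 5 of 18). With the replicate block Spred1 was also called against hyperplastic glands (0.27, adjusted p = 0.0414), for 6 calls in place of 5. Where the annotation had to print 1 symbol, Hras had no value. With the 2 compared groups alone Dusp6 lost that call (adjusted p = 0.0756). Signs of uncalled genes turned as follows. Centred on reference genes, hyperplastic minus normal was -0.04 for Dusp4 and -0.02 for Spred1. With array weights Spry1 was 0.01 above normal and 0.04 above hyperplastic glands. Without tumors 3 and 6 and hyperplastic gland 3, Spry1 was 0.04 and 0.06 and Spry2 0.01 and 0.09 in tumors minus normal and minus hyperplastic glands. Leaving out each array, Spry1 ran from -0.13 to 0.02 against normal glands and, against hyperplastic glands, Dusp4 from -0.05 to 0.22, Spry1 from -0.08 to 0.07 and Spry2 from -0.14 to 0.04; hyperplastic minus normal ran from -0.14 to 0.04 for Spry2 and from -0.06 to 0.01 for Spred2. Centring moved the median of all genes against normal glands to -0.064 in tumors and -0.105 in hyperplastic glands, in place of 0.043 and 0.008, and the share of calls that were higher to 35.3% and 7.3%, in place of 60.3% and 60.7%. All-gene calls between hyperplastic and normal glands, 450, were 1515 with those groups alone, 1267 centred, 2397 with array weights, 880 over all clusters, 7 at the study's threshold and 175 to 607 with an array left out; over all clusters tumors against normal glands gave 15658. The study's threshold gave 271 and 145 for tumors. The causes were not tested. Low values, and 6 arrays per group, limit what small changes can be seen.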
